A study of Mus musculus with 3 samples.

Results

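The Rhox genes (reproductive homeobox genes) are a family of homeobox transcription factor genes clustered on the mouse X chromosome. The 6 taken here as members are Rhox3a, Rhox4b, Rhox5, Rhox6, Rhox8 and Rhox9. They were followed in gonads of male Cyp26b1-/- mouse embryos of the MCH line at E12.5, E13.5 and E14.5, with 2 arrays at each of the 3 stages. The series describes the 2 arrays of a stage as biological duplicates. Every group carried the Cyp26b1 deletion, and arrays of a control genotype were not analysed here, so the values describe change with age in the knockout gonad and not the effect of the deletion. The family was picked on these same data because the Rhox3a signal rose steeply, and the other members were taken with it by name. Of the 6 members, 4 were matched to a probe by RefSeq accession and are the ones with values below, among 16531 genes named on the array. Rhox4b and Rhox8 matched no probe by accession and have no value here.

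Rhox proteins bind DNA through a homeodomain, and the genes of the cluster are expressed mainly in testis, ovary, epididymis and placenta. Rhox5, first known as Pem, is expressed in Sertoli cells and is responsive to androgen in the postnatal testis, and Rhox6 and Rhox9, first known as Psx1 and Psx2, are expressed in placenta and in fetal germ cells. In mouse embryonic cells many genes of the cluster are kept silent by DNA methylation. The product of Cyp26b1 is an enzyme that degrades retinoic acid, and it protects germ cells of the fetal testis from that signal.

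Gonads were dissected into cold saline and kept in RNAlater, and amplified Cy3-labelled cRNA was hybridised to 1-colour Agilent arrays. Between 65.9% and 70.8% of spots were well above background on the 6 arrays, 0 spots were saturated, and duplicate arrays had Pearson r of 0.992 to 0.994 across probes, which are not independent replicates. The pair of E12.5 arrays shared 1 slide and the other 4 arrays shared a second one. The E12.5 arrays also had the older of 2 array designs (build mm7, against mm8 for the other 4). Stage therefore cannot be told apart from slide or design wherever E12.5 is compared with a later stage. The step to E14.5 from E13.5 stays within 1 slide. The gonads gave signal for Y-linked genes (Uty, Kdm5d, Ddx3y and Eif2s3y, on 6 of 6 arrays), while Xist was well above background on 0 arrays. Cyp26b1 itself gave signal on 6 of 6 arrays, between 3.78 and 4.92 log2 units over the array's 75th percentile, but it is not known here whether its 1 probe lies in the deleted region, so this does not check the genotype. All 10 germ cell markers and 8 Sertoli cell markers examined were measured. All of them were well above background on the 6 arrays except Nanos2, which was so at E13.5 and E14.5 only.

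The family is large and partly repeated, which limits what a probe named for 1 copy measures. The RefSeq gene table lists 33 protein-coding Rhox genes and 9 pseudogenes or non-coding genes, among them 7 copies of Rhox3, 8 of Rhox4 and 8 of Rhox2. Of all these, 7 had a probe, 1 probe each. Besides the 4 members these were Rhox2a, Rhox4e and Rhox11. The probe sequences were not used here, so whether the Rhox3a probe also binds transcripts of other Rhox3 copies, or the Rhox4e probe those of Rhox4b, was not tested. The signals named Rhox3a, Rhox2a and Rhox4e are therefore uncertain as to copy.

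Start windows of the copies show how alike they can be. RefSeq windows of 300 bases, 250 before to 50 after the annotated start on build GRCm38.p6, were found for 3 members (Rhox3a, Rhox4b and Rhox5). The Rhox3a and Rhox5 windows are shown for their content of CpG, the dinucleotide that DNA methylation acts on, which is in capitals. The Rhox3a window lies at chrX:37249669-37249968 and the Rhox5 window at chrX:37754358-37754657, both on the plus strand.
Rhox3a: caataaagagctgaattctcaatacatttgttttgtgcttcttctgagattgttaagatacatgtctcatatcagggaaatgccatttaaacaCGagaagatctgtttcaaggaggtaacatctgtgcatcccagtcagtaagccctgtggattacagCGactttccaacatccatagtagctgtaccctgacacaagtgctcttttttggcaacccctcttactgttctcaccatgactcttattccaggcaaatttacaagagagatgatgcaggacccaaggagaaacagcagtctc
Rhox5: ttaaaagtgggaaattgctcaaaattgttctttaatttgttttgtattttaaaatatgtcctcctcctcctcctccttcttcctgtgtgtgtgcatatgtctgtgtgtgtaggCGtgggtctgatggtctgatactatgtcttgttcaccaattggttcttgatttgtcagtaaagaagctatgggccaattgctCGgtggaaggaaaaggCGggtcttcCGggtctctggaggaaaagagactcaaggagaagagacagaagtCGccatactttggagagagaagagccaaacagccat
The Rhox3a window held 2 CpG and the Rhox5 window 5, against a median of 7 over all 32851 windows of this length. Windows with at most as many CpG made up 23.3% of all windows for Rhox3a and 43.6% for Rhox5. The Rhox3a window was the same in all 300 bases as that of Rhox3h, while its longest run shared with any of the 5 remaining Rhox3 copies was 8 bases.

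The Rhox4b and Rhox4e windows are shown because Rhox4b had no probe and Rhox4e did. They lie at chrX:37432244-37432543 and chrX:37557162-37557461 on the plus strand, and the capitals mark the longest run that the 2 windows share, of 150 bases.
Rhox4b: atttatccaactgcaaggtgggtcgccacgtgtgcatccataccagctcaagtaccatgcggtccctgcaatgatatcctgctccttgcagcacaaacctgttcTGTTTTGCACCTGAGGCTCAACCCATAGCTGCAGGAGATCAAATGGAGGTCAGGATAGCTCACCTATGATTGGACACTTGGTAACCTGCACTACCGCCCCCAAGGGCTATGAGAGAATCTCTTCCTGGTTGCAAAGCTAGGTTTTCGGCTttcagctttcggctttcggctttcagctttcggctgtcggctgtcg
Rhox4e: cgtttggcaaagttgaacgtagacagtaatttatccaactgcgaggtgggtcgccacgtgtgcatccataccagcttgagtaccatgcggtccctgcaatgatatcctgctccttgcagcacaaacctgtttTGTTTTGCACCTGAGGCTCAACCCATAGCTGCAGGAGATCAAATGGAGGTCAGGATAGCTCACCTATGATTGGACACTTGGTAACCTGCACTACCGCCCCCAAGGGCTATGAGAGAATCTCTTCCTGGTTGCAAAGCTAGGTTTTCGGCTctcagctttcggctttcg
Over 272 aligned bases these windows were 98.2% identical, and the Rhox4b window was 95.2% to 98.2% identical to those of the 6 other Rhox4 copies with a window. Each of the 2 held 10 CpG. Start windows say nothing of the sequence under a probe, but they show copies that differ in few bases.

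The 3 motifs given here were searched on both strands of the members' windows. AGGTCA, a half-site of retinoic acid receptor binding, was found once in the Rhox4b window and in neither the Rhox3a nor the Rhox5 window, and 16.3% of all windows hold it. GATAA, a core of GATA factor binding, was found in the Rhox4b window alone of the 3 (25.4% of all windows), and TATAAA in none (13.6%). Matches of different motifs shared 0 bases. A match is only a description of the letters in the window.

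Levels are given as log2 of the spot intensity minus the 75th percentile of the same array, so 0 is the level of a probe at that percentile, and levels of different probes cannot be set against each other. Changes are differences of stage means in log2 units ± SE from 1 limma fit over 28391 probes and all 6 arrays (n = 2 a stage). A change was called at a Benjamini-Hochberg adjusted p under 0.05 over all those probes. All 4 members with a probe were well above background on all 6 arrays. In bulk gonads, fewer cells of a type and less RNA per cell cannot be told apart.

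Rhox3a, a homeobox gene of the repeated Rhox3 group, was higher at each later stage, and the family was picked on that rise. Its signal was 57.4 and 24.8 intensity units on the E12.5 arrays, 312 and 528 on the E13.5 arrays, and 1269 and 1576 on the E14.5 arrays. On the log2 scale over the 75th percentile the E12.5 arrays stood at -5.00 and -5.86, the E13.5 arrays at -2.01 and -0.96, and the E14.5 arrays at 0.35 and 0.47. Every array of a later stage was above every array of an earlier one. The E12.5 arrays were close to the dimmest levels called above background, which were -6.41 and -6.21 on those arrays, while both E14.5 arrays were above the 75th percentile of their array.

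The Rhox3a change was 3.95 ± 0.42 for E13.5 against E12.5, 1.90 ± 0.42 for E14.5 against E13.5 and 5.84 ± 0.42 for E14.5 against E12.5, a description for which no test is given. These correspond to 15.4-fold, 3.72-fold and 57.3-fold. Of the 28391 probes, 9 had a change at least as high between E12.5 and E14.5, Rhox3a among them. With normexp background correction, which adds an offset to every signal and so compresses dim ones, the changes were 2.61 for E13.5 against E12.5 and 4.32 for E14.5 against E12.5, and 1.71 for E14.5 against E13.5. The second step, which lies within 1 slide, ran from 1.37 to 2.42 when each array was left out in turn.

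Rhox5, known as an androgen-responsive Sertoli cell gene of the postnatal testis, stayed bright throughout, and neither step passed the test. Its levels were 5.58 and 5.81 on the E12.5 arrays, 5.55 and 5.25 on the E13.5 arrays and 5.46 and 4.65 on the E14.5 arrays. The second E14.5 array was the lowest of the 6, and the first E14.5 array lay between the E13.5 arrays. The change was -0.30 ± 0.28 for E13.5 against E12.5, with a 95% interval of -0.997 to 0.41 (adjusted p = 0.465). For E14.5 against E13.5 it was -0.35 ± 0.28, with an interval of -1.05 to 0.35 (adjusted p = 0.608), and without the second E14.5 array it was 0.057. For E14.5 against E12.5 the difference was -0.64, and it was -0.24 without the second E14.5 array and -1.05 without the first.

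Rhox6, a homeobox gene of placenta and fetal germ cells, fell at E13.5. Its levels were 2.83 and 2.45 on the E12.5 arrays, 1.49 and 1.33 on the E13.5 arrays and 1.93 and 1.57 on the E14.5 arrays. Both E12.5 arrays were above all later ones, and both E14.5 arrays were above both E13.5 arrays by a small margin. The change was -1.23 ± 0.19 for E13.5 against E12.5, a level 2.34-fold lower at E13.5 (adjusted p = 0.0115). Without the second E13.5 array it was -1.15 and was not called (adjusted p = 0.0622). For E14.5 against E13.5 the change was 0.34 ± 0.19, with an interval of -0.14 to 0.82 (adjusted p = 0.469).

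Rhox9, which lies next to Rhox6 among the measured genes and is likewise known from placenta and fetal germ cells, also fell at E13.5; the falls of Rhox6 and Rhox9 were not tested against each other. Its levels were 4.17 and 3.86 on the E12.5 arrays, 2.13 and 1.61 on the E13.5 arrays and 2.003 and 1.80 on the E14.5 arrays. The E12.5 arrays stood apart above the 4 later arrays, and the E14.5 arrays lay between the E13.5 arrays. The change was -2.15 ± 0.22 for E13.5 against E12.5, a level 4.42-fold lower at E13.5 (adjusted p = 0.00499), and it was called under every alternative that gave a test. Of all probes tested, 0.476% fell at least as far. For E14.5 against E13.5 the change was 0.03 ± 0.22, with an interval of -0.50 to 0.56 (adjusted p = 0.964).

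**Figure D1:**
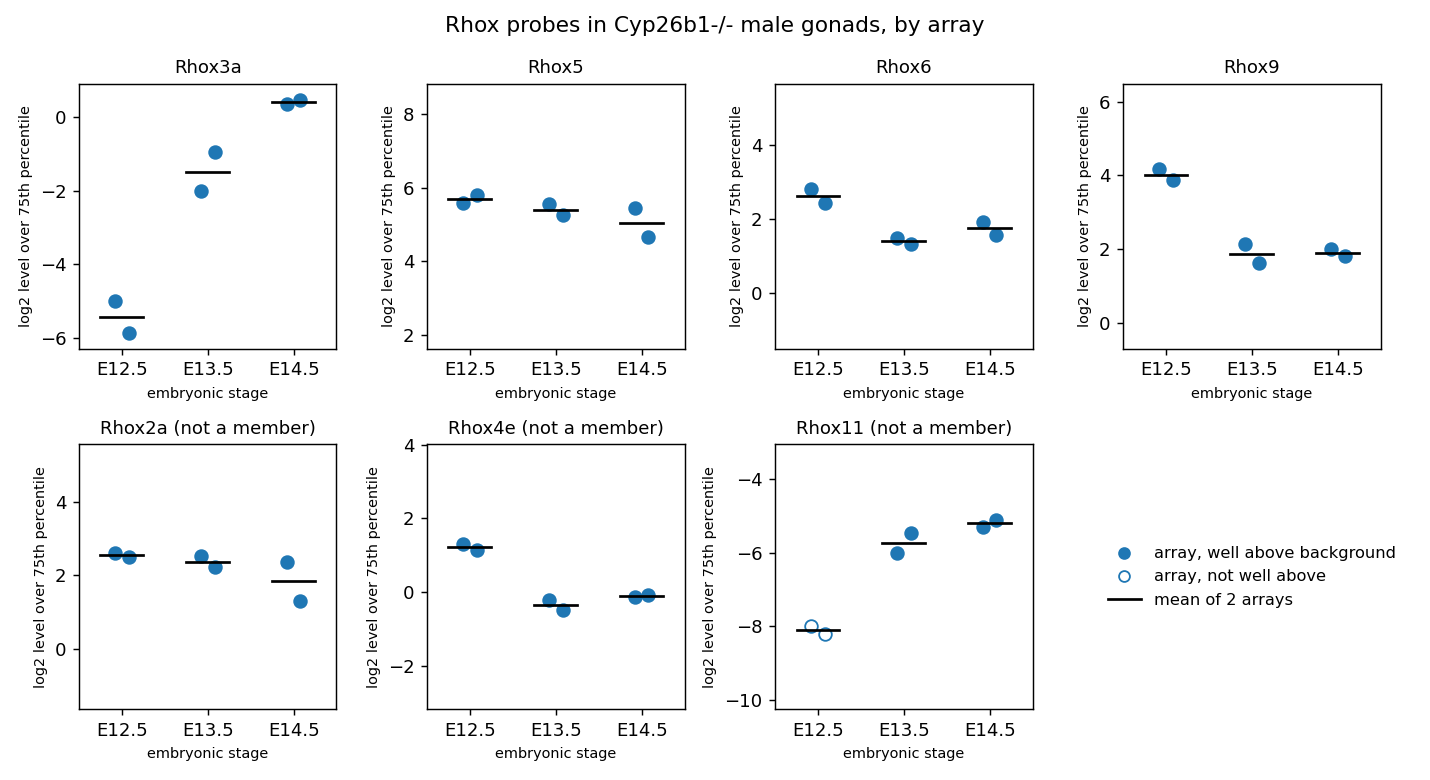
Levels of the 4 members and the 3 other Rhox genes with a probe, as log2 intensity minus the 75th percentile of the array (vertical axis, same span in every panel), at E12.5, E13.5 and E14.5. Points are arrays, open where not well above background, and bars are means of 2 arrays; Rhox3a lies higher at each later stage, Rhox6, Rhox9 and Rhox4e are lower on all 4 later arrays than at E12.5, and the stage means of Rhox5 lie within 1 unit of each other.

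Of the 3 members read for a test in the first step, Rhox6 and Rhox9 fell and Rhox5 did not pass, in a step that also crosses slides. Over all probes, 27.4% were called in that step, 4291 higher and 3487 lower, and the lower calls made up 12.3% of probes tested. With the array median in place of the 75th percentile, 44.7% of the called probes were higher in place of 55.2%, and Rhox6 and Rhox9 were still called lower. In the second step limma called 0 of the 3 members, also with 0 at an unadjusted p under 0.05, and over all probes it called 1, or 0.00352%, with 4126 at an unadjusted p under 0.05. For E14.5 against E12.5 it called 40.2% of probes. In that comparison, used to pick the family, the differences were -0.64 for Rhox5, -0.89 for Rhox6 and -2.12 for Rhox9, given with no test.

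Whether a member's second step differed from its first was also fitted as a contrast, added after the values were seen. The second step was higher than the first by 2.17 ± 0.37 for Rhox9 (adjusted p = 0.0875) and by 1.57 ± 0.33 for Rhox6 (adjusted p = 0.111), so neither passed. Both passed with normexp (adjusted p = 0.00963 for Rhox9 and 0.00832 for Rhox6) and with a trended, robust variance prior (0.0238 and 0.0348). Neither passed under any other setting that kept all 6 arrays, with adjusted p up to 0.235 for Rhox9 and 0.261 for Rhox6. Over all probes this contrast called 10 (0.0352%) in the reported fit, 784 (2.76%) with normexp and 708 (2.49%) with that prior. For Rhox5 the difference was -0.05 ± 0.49 (adjusted p = 0.963).

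**Figure D2:**
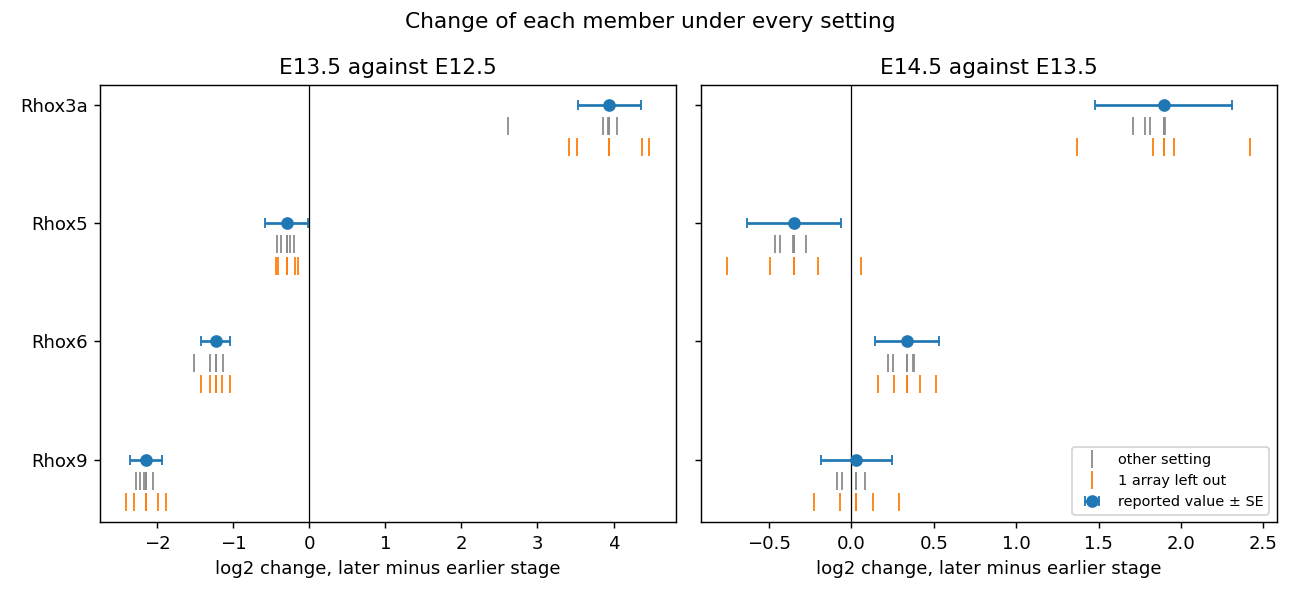
Log2 change of each member for E13.5 against E12.5 (left) and E14.5 against E13.5 (right), on horizontal axes of different span. Circles are the reported changes ± SE, grey ticks other settings and orange ticks fits with 1 array left out; Rhox6 and Rhox9 lie below 0 in the first step under every setting, and Rhox9 lies on both sides of 0 in the second.

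Of the other measured Rhox genes, Rhox4e fell in the first step, Rhox2a did not pass, and Rhox11 is given only a bound. For Rhox4e, of the repeated Rhox4 group, levels were 1.30 and 1.14 on the E12.5 arrays, -0.21 and -0.48 on the E13.5 arrays and -0.14 and -0.09 on the E14.5 arrays. It fell in the first step, by 1.56 ± 0.14 on the log2 scale (adjusted p = 0.00441), and its second step was 0.23 ± 0.14 (adjusted p = 0.501). For Rhox2a, levels were 2.61 and 2.49 on the E12.5 arrays, 2.52 and 2.22 on the E13.5 arrays and 2.37 and 1.30 on the E14.5 arrays. Neither of its steps passed, at -0.18 ± 0.35 (adjusted p = 0.731) and -0.53 ± 0.35 (adjusted p = 0.525), and the second E14.5 array was its lowest, as it was for Rhox5. Rhox11 was not well above background on either E12.5 array and was so on all 4 later ones. It thus entered the fit only through the later stages, and its p is not read as a test. It was at least 1.49-fold higher at E13.5 and at least 2.17-fold higher at E14.5 than at E12.5. With normexp its measured differences were 0.63 at E13.5 and 0.88 at E14.5 on the log2 scale, so the second bound does not hold under that correction. Each bound compares a later mean with the dimmest signal that still counted as above background on the E12.5 arrays.

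Along the X chromosome, the measured Rhox genes whose first step is read as a test fell or did not pass. Rhox3a, chosen for its rise, lies between Rhox2a and Rhox4e among the measured genes. In the order of the RefSeq table the measured genes run Rhox2a, Rhox3a, Rhox4e, Rhox5, Rhox6, Rhox9 and Rhox11. Of the 10 measured genes before the cluster and the 10 after it, 2 rose, 2 fell and 16 did not pass in the first step, with a median change of -0.02 and a range of -0.87 to 0.91. Zbtb33 and Tmem255a lie between Rhox11 and a distal Rhox pseudogene and are not among the 20. In the first step Zbtb33 fell, at -0.53 (adjusted p = 0.0304), and Tmem255a, at -0.41, did not pass (adjusted p = 0.0657). Among all 480 X-linked genes measured 35.6% were called in that step, and among all 13426 named genes 26.9%. In the first step the 20 flanking genes thus stayed within 1 log2 unit, as did Rhox2a and Rhox5, while Rhox6, Rhox9 and Rhox4e fell further than that, and Rhox3a was chosen for its rise. In the second step Xiap, a flanking gene, was at -1.04 (adjusted p = 0.393).

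Cell type markers were also read in the first step, in which 26.9% of all named genes were called, 2140 higher and 1478 lower. Of the 10 germ cell markers 6 were called higher for E13.5 against E12.5 (Ddx4, Dazl, Mael, Tex101, Nanos2 and Sycp3). Of the rest 0 fell and 4 did not pass (Dppa3, Pou5f1, Dnd1 and Nanos3). Nanos2 was well above background on neither E12.5 array. It entered the fit only through the later stages, and its call is not read as a test. Dazl rose on its brightest probe only, with its other probe at -0.03 (adjusted p = 0.93). Their summed linear level over the 75th percentile was 41.9 to 53.0 at E12.5, 90.5 to 106 at E13.5, and 106 to 121 at E14.5. Tex101 gave the brightest signal of them at E14.5, but Dppa3 was brighter at E12.5 and E13.5. Without Tex101 the sum was 39.8 to 50.3 at E12.5, 74.1 to 78.7 at E13.5, and 61.7 to 76.4 at E14.5. The called germ cell markers other than Nanos2 rose in the step in which Rhox6 and Rhox9 fell. Of the 8 Sertoli cell markers 1 rose (Inha), 2 fell (Sox9 and Fgf9) and 5 did not pass, and their summed level was 120 to 142 at E12.5, 168 to 171 at E13.5, and 175 to 182 at E14.5. Without Cst9, the brightest of these and not called (adjusted p = 0.0684), the sum was 64.9 to 70.4 at E12.5, 70.2 to 72.2 at E13.5, and 65.0 to 70.7 at E14.5. All 5 measured fetal Leydig cell markers rose, with a summed level of 3.22 to 4.26 at E12.5, 34.5 to 40.4 at E13.5, and 59.7 to 79.0 at E14.5. Of 5 erythroid markers 2 fell (Hbb-bh1 and Klf1) and 3 did not pass, and their summed level was 109 to 144 at E12.5, 46.9 to 64.2 at E13.5, and 11.1 to 28.2 at E14.5. The part of cell composition in the Rhox values was not tested.

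Among the smaller marker lists, 1 of 4 pregranulosa markers rose and 1 fell in the first step, and 1 of 4 endothelial markers fell (Kdr). Cdh5, another endothelial marker, was at -0.39 on its brightest probe (adjusted p = 0.0718). Its other probe was at -1.19 (adjusted p = 0.00619). Of all named genes 26.9% were called in that step. In that step 1 of 3 macrophage markers rose, and of 5 mesonephros markers 1 was called higher (Pax2) and 2 fell. Pax2 was well above background on only 1 of the 2 E12.5 arrays. It passed the filter through the later stages, and its call is not read as a test. The summed level of the mesonephros markers was 0.926 to 1.08 at E12.5, 0.477 to 0.702 at E13.5, and 0.228 to 0.283 at E14.5. Lhx1, the brightest of these, was called in neither step. Without it the sum was 0.234 to 0.243 at E12.5, 0.118 to 0.136 at E13.5, and 0.134 to 0.138 at E14.5. In the second step no marker of any list was called by limma. An unadjusted p under 0.05 was seen for 3 of 10 germ cell, 3 of 8 Sertoli cell and 4 of 5 Leydig cell markers. It was also seen for 3 of 5 erythroid, 3 of 3 macrophage, 1 of 4 pregranulosa and 1 of 5 mesonephros markers. It was seen for 0 of 4 endothelial markers, and for 14.5% of all probes.

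Genes of DNA methylation and repressive chromatin, several of which are known to silence Rhox genes in mouse cells, moved in both directions. Of 21 listed, 18 were measured. For E13.5 against E12.5, 2 rose, 4 fell and 12 did not pass, with a median of -0.09 beside 0.05 over all named genes. Of all named genes 26.9% were called in that step, 2140 higher and 1478 lower. Dnmt3b, a de novo DNA methyltransferase, fell by 0.47 on the log2 scale (adjusted p = 0.0419), and Hdac2, a histone deacetylase, fell by 1.39 (adjusted p = 0.00488). Of the 5 histone H3 lysine methyltransferase genes, Ehmt2 was at 0.88 (adjusted p = 0.00798), Ehmt1 at -0.62 (adjusted p = 0.04), and Setdb1, Suv39h1 and Suv39h2 did not pass. Dnmt3a, the other de novo methyltransferase, rose by 2.16 on its brightest probe (adjusted p = 0.0101), but its other probes were at -0.30 and -0.45 and did not pass. Uhrf1, which recruits the maintenance methyltransferase, fell on both its probes, at -0.61 (adjusted p = 0.0204) and -0.92 (adjusted p = 0.0115). In the second step 0 of the 18 were called by limma and 3 had an unadjusted p under 0.05, beside 14.5% of all probes.

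Of 15 genes for GATA and other gonadal factors, all measured, 6 fell and 2 rose in the first step while 7 did not pass. Their median was -0.32, beside 0.05 over all named genes, of which 26.9% were called. Sox9 and Nr5a1 of this list are also among the Sertoli and Leydig cell markers. Gata4, a factor of gonadal somatic cells, was at 0.03 on its brightest probe (adjusted p = 0.887) and at -1.16 on its other probe (adjusted p = 0.00754). Sox9, the Sertoli cell fate gene, was at -1.24 (adjusted p = 0.0141) on its brightest probe, and at -0.82 (adjusted p = 0.0181) and -0.43 (adjusted p = 0.0971) on the others. Runx1, a runt-domain factor, fell by 1.22 (adjusted p = 0.00415), and Zfpm2, the GATA cofactor, fell by 1.05 (adjusted p = 0.00639). Gata2 fell by 0.85 on its brightest probe (adjusted p = 0.00731) and was at -0.38 on its other probe (adjusted p = 0.0612). In the second step 0 of the 15 were called by limma and 2 had an unadjusted p under 0.05, beside 14.5% of all probes.

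The genes whose pattern over the 6 arrays was nearest to each member were found by Euclidean distance between probes centred on their own means, among 13419 genes outside the family. Nearest to Rhox3a were Fam205c (distance 0.586 log2 units), Sftpc (0.792) and Jak3 (1.07), with differences of 5.48, 5.90 and 5.44 for E14.5 against E12.5. Nearest to Rhox9 were Pnmt (0.440), St8sia1 (0.451) and Fam241b (0.484), with first steps of -2.02, -2.10 and -1.76. Nearest to Rhox6 were Cd4 (0.260), Lrrc4c (0.321) and Dbt (0.328), with first steps of -1.15, -0.98 and -0.93. Nearest to Rhox5 were Dek (0.192), Rp9 (0.233) and Gpr182 (0.238). With 3 stages many genes can share a pattern, and the distances are a description with no test. None of these 12 genes lies on the X chromosome.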

How the data were processed

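Per the file headers, the deposited scanner files hold spot intensity from Agilent Feature Extraction (version 9.5 per the submitters' processing notes), background-subtracted and not scaled between arrays. The authors' deposited table gives each probe a linear ratio at each stage, to an unstated reference. It served only as an alternative. Control and outlier spots were left out, log2 intensity was reduced by each array's 75th percentile, and replicate spots were averaged. Of 41174 probes, 21 lacked a value on some array and were dropped, and 23366 were named by RefSeq accession, from the newer of the 2 array designs (870 would be named otherwise by the older). The 28391 probes that cleared background (the well-above-background flag) in both duplicates of any stage were fitted with limma 3.58.1 in R 4.3.3 (eBayes without trend, two-sided, 3 residual and 2.71 prior degrees of freedom). The number of arrays limits the precision.

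The members and lists were chosen with earlier results of these data known. All Rhox probes are named, and up to 4 called genes with the largest change per list and step, plus Dnmt3b and Gata4; 1 further gene that the rule names is not reported here. Uhrf1 was chosen after its values were seen, as were the markers named. The brightest probe stands for other genes. Alternatives were normexp (offset 50, on spot medians), quantile and median scaling, other filters, priors and array sets, and a replicate block. Marker sums without 1 bright gene of the list were added after the values were seen. The fit was tested on simulated data. Start windows were aligned with Biopython 1.88 and figures drawn with matplotlib 3.10.9.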

Additional observations from a re-analysis of the deposited data

How the results depend on the processing

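Rhox9 and Rhox4e kept their direction and call for E13.5 against E12.5 in every alternative that gave a test, and Rhox6 in all except the fit without the second E13.5 array (-1.15, adjusted p = 0.0622, in a range of -1.42 to -1.04), where the count of members called was 1 in place of 2. Leaving out each array gave 1 to 2 members called in the first step and 0 in the second. In the authors' deposited table, whose ratios carry no test, the first step was -2.05 for Rhox9 and -1.13 for Rhox6, and Rhox9's second step was -0.08.

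Small second steps changed sign. That of Rhox9 was -0.055 with median scaling and -0.23 to 0.29 with 1 array left out, negative without the second E13.5 (-0.23) or first E14.5 array (-0.07). With 1 array left out that of Rhox5 was -0.75 to 0.057 and that of Rhox2a -1.07 to 0.0025, both positive only without the second E14.5 array. The difference between steps for Rhox5 was 0.068 with normexp and -0.46 to 0.35 with 1 array left out, positive without the first E12.5 (0.059), first E13.5 (0.24) or second E14.5 array (0.35), and for Rhox2a it was -0.89 to 0.18, positive without the second E14.5 array. For E14.5 against E12.5, normexp gave 4.32 for Rhox3a, -1.14 for Rhox6 and 0.88 for Rhox11 (2.90 as measured without it, from a dim E12.5 signal), and in the first step 2.61 for Rhox3a. Leaving out each array gave -1.05 to -0.24 for Rhox5 in that comparison. Median scaling moved the median of all probes to -0.16 there, and the share of called probes that were higher to 37%, in place of 52.5%. The causes were not tested.

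Probes called for E13.5 against E12.5 numbered 3356 with no filter, 4246 with 1 probe per named gene (fewer probes tested) and 1953 to 6562 with 1 array left out. For E14.5 against E13.5 they numbered 369 with normexp, 20 with median scaling, 0 with all arrays above background, 7 with 1 probe per gene, 6 with the trended prior, 2 with 4 arrays only, and 1 to 17 with 1 array left out. For E14.5 against E12.5 they numbered 7554 with no filter, 6236 with 1 probe per gene and 5921 to 9678 with 1 array left out, where a lone array is assumed to vary like the other stages.

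The labels do not say whether array numbers pair the samples. Same-numbered deviations correlated at -0.115 (E12.5 and E13.5), 0.241 (E13.5 and E14.5) and -0.0887 (E12.5 and E14.5), which does not settle it. With the array number as a replicate block, probes called numbered 6040, 1 and 10168, and no member's call changed.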
